A study of Mus musculus with 18 samples.

Results

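This report describes the open chromatin found at 10 genes typical of liver sinusoidal endothelial cells, *Stab1*, *Stab2*, *Lyve1*, *Kdr*, *Tek*, *Clec4g*, *Gpr182*, *Gata4*, *Fcgr2b*, and *Oit3*, in a list of regions made from liver macrophages (LMs). An open region was taken as a member when its midpoint lay in the body of 1 of these genes, or at most 10 kb from either end, in the GENCODE vM1 annotation of mm9. By this rule 74 of the 69499 regions in the list belonged to the 10 genes, and no region belonged to more than 1 of them. Fast-ATAC-Seq, in which a transposase cuts accessible DNA and tags the fragments for sequencing, had been run on 50000 isolated cells per reaction. The 18 libraries came from male C57BL/6J mice of 3 genotypes at ZT10 and ZT22 (hours after lights on), with 3 replicates in each of the 6 groups. All mice carried loxP-flanked *Rev-erb*α and *Rev-erb*β, the floxed alleles of the clock repressors, and received an adeno-associated virus at 8 weeks of age, then 4 weeks of the high-fat, high-sucrose diet D12492i. The hepatocyte-specific TBG promoter directs expression of the gene that the virus carries to hepatocytes. The virus carried GFP in the control group and Cre in the *Reverb*-hDKO group. In the *Reverb/Scap*-hTKO group it carried Cre, in mice that also had floxed *Scap*. The deletion was thus directed at hepatocytes and not at the LMs that the libraries are labeled as. The titles of the libraries call these cells KC, and their labels call them liver macrophages.

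The deposited list gives positions alone, pooled over all libraries. With no value for any library the depth is unknown, and neither genotypes nor times nor replicates could be compared. A region that is present was called in at least part of the pooled data, and nothing in the list says in which library. No statistical test was run, and every comparison below is a count or a share set beside the same quantity over all regions or all 22367 protein-coding genes.

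Liver sinusoidal endothelial cells line the sinusoids, the fenestrated capillaries of the liver, and lie next to the Kupffer cells in the same vessel. They take up waste molecules from blood through scavenger receptors and lectins, and they depend on VEGF and angiopoietin signaling and on the TF GATA4 for their identity. Chromatin is open at a gene's start in many cell types, whereas open regions away from starts, among them enhancers, tend to differ more between cell types. For this reason regions at starts and regions away from them were kept apart. A region was called distal when its midpoint was more than 1000 bp from each annotated transcription start of any gene. *Stab1*, *Lyve1*, and *Fcgr2b* are known to be expressed in macrophages too, and *Gata4* is also known from other liver cells, so the 10 genes are not markers of a single cell type.

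Because distal regions are what the comparison turns on, the widest distal region of each gene is shown as its mm9 plus-strand sequence, read 5′ to 3′. Capitals mark matches on either strand to 7 short motifs. The letters searched were AGATAA for the GATA motif, CAGGAAG for the ETS motif, ATTGTT for the SOX motif, and TGACTCA or TGAGTCA for AP-1. They were GAGGAAGT for PU.1, TTGCNNAA for C/EBP, and CAAAGTCCA for HNF4. The ETS and PU.1 patterns differ in their first base, so a single site cannot match both. In *Kdr* the widest distal region lies in an exon with untranslated sequence, so the next widest is given.
Stab1: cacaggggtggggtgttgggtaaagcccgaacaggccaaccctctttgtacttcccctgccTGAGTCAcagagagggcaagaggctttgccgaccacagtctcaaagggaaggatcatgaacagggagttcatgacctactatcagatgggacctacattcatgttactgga
Stab2: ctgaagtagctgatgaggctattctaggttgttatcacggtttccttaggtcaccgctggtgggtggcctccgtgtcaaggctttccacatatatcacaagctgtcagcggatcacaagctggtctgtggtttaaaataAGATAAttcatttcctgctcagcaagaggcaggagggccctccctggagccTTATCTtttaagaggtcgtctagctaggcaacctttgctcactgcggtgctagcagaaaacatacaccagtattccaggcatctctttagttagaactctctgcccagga
Lyve1: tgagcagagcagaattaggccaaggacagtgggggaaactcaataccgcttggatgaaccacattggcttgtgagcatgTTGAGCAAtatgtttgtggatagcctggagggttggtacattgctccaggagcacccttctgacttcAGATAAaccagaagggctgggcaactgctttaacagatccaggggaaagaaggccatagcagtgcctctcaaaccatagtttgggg
Kdr: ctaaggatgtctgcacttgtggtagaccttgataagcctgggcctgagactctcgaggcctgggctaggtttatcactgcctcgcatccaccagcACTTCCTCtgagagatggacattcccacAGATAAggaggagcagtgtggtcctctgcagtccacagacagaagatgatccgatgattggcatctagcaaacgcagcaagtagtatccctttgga
Tek: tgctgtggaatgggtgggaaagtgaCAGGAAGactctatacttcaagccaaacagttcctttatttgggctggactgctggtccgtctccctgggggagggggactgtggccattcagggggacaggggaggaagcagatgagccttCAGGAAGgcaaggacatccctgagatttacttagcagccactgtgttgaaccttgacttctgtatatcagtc
Clec4g: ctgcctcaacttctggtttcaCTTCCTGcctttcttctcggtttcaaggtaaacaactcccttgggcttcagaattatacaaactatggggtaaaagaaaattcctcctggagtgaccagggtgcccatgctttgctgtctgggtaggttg
Gpr182: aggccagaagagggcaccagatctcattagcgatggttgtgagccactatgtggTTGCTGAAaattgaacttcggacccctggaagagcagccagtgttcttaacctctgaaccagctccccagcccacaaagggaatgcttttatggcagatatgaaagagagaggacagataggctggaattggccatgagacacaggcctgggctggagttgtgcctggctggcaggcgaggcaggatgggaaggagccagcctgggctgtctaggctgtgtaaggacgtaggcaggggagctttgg
Gata4: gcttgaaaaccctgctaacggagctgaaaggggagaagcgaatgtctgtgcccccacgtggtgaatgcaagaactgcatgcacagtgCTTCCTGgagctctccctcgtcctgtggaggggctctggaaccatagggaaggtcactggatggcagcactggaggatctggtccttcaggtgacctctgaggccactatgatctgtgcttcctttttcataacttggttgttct
Fcgr2b: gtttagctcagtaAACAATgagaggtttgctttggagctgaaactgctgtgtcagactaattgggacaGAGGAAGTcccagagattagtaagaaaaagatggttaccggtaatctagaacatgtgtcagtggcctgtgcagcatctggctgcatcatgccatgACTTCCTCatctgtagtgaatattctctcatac
Oit3: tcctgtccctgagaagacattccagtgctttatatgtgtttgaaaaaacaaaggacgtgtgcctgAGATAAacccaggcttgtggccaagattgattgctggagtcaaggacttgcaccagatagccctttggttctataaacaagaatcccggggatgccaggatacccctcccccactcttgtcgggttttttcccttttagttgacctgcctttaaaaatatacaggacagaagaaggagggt
These are chr14:31973826-31973997 in intron 11 of *Stab1*, chr10:86453487-86453786 in intron 3 of *Stab2* (the central 300 bp of a region of 319 bp), chr7:117992036-117992267 downstream of *Lyve1*, chr5:76358328-76358546 in *Kdr*, and chr4:94496837-94497055 in intron 11 of *Tek*. The others are chr8:3711894-3712044 in *Clec4g*, chr10:127175262-127175561 downstream of *Gpr182* (the central 300 bp of 358 bp), chr14:63814752-63814983 downstream of *Gata4*, chr1:172903163-172903358 in intron 1 of *Fcgr2b*, and chr10:58906133-58906378 upstream of *Oit3*. Introns are numbered in the transcript with the longest coding sequence. Places go by the midpoint, and the *Stab1*, *Stab2*, and *Kdr* regions shown also overlap an annotated exon. The *Stab2* sequence holds 2 GATA matches, the *Tek* sequence 2 ETS matches, and the *Fcgr2b* sequence 2 PU.1 matches beside 1 SOX match. A match describes letters only and does not show that a factor binds.

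The sinusoidal endothelial genes had open regions away from starts as well as at them. Of the 74 regions, 46 were distal (62.2%, 95% Wilson confidence interval 50.8% to 72.4%, which covers counting error only), while over chromosomes 1 to 19, X, and Y 69.9% of all regions were distal. Every one of the 10 genes had at least 1 distal region in its window, against 56.6% of protein-coding genes. The latter share rose with window length. It was 37.4% under 30 kb, 61.6% at 30 to 50 kb, 71.0% at 50 to 100 kb, and 81.9% over 100 kb. By midpoint, the distal regions numbered 24 in introns, 7 in exons, 6 upstream, and 9 downstream. Over their full width, 32 of the 46 overlapped no annotated exon of any gene, so some regions counted as intronic reach into an exon. Inside the gene bodies there were 31 distal regions in 8 of the 10 genes, and 36.0% of protein-coding genes had at least 1 in the body. The share for gene bodies is not given by gene length. *Lyve1* and *Oit3* were the exceptions, with 1 distal region each, outside the gene. Intronic distal regions were found in 7 genes. The remaining regions were 18 at starts of the 10 genes themselves and 10 at starts of other genes that lie in the windows.

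**Figure D1:**
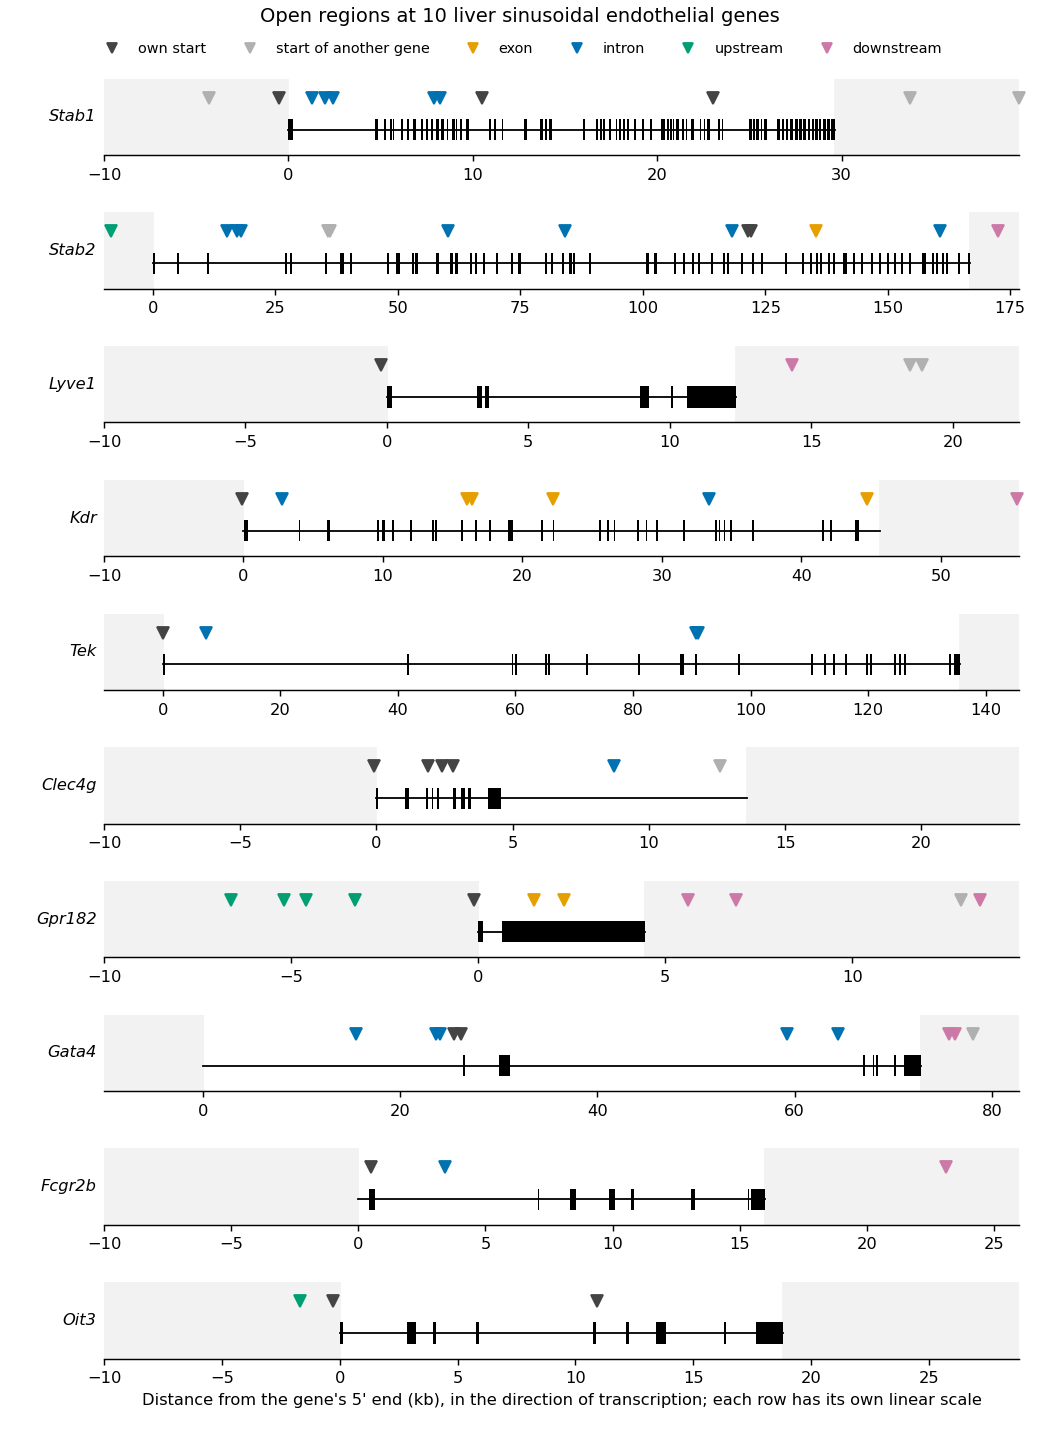
Map of the 74 open regions at the 10 genes. Each row is a gene drawn in the direction of transcription with its own linear scale in kb from its 5′ end, black boxes are exons of the transcript with the longest coding sequence, gray shading is the flank of 10 kb, and triangles are region midpoints colored by position. Regions lie along the gene bodies of *Stab2*, *Kdr*, *Tek*, and *Gata4* as well as at starts, and no triangle lies at the 5′ ends of *Stab2* and *Gata4*.

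Starts were open at most of the genes, but the count depended on which starts were asked for. All 10 genes had a region at most 1000 bp from at least 1 of their annotated starts, compared with 56.7% of protein-coding genes. With starts of coding transcripts only, the count was 9 of 10 (55.8% of protein-coding genes), and with the 5′ end of the whole gene only it was 8 of 10 (53.1%). *Stab2* was missing from both narrower counts and *Gata4* from the last. Of the 18 regions at own starts, 8 were at a 5′ end and 10 at starts inside the gene. Of these 10, only the 2 in *Gata4* were at the start of a coding transcript, and the others were at starts of transcripts annotated as retained introns or as targets of nonsense-mediated decay.

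Among the receptors that clear waste from blood, *Stab1* and *Stab2* encode the scavenger receptors stabilin-1 and stabilin-2. *Stab2* (ENSMUSG00000035459.9, chromosome 10, 86303943 to 86470770, minus strand) had 14 regions, the most of the 10 genes, of which 10 were distal. It had no region at its 5′ end, and the nearest, chr10:86479253-86479403, was 8558 bp upstream of it. Intron 3 held 3 regions, at 15.2, 17.1, and 17.9 kb from the 5′ end, and the middle one was 319 bp wide. Further distal regions lay at 60.3 kb in intron 17 (225 bp), at 84.2 kb in intron 28 (289 bp), at 118.2 kb in intron 41, at 135.3 kb in an exon (256 bp), and at 160.7 kb in intron 65. A region at 172.6 kb lay downstream, within *Nt5dc3*. The 2 regions counted as own starts were at 121.4 and 122.1 kb, deep in the gene, and the 2 at 35.8 and 36.2 kb were at the start of *Gm16271*, a noncoding gene on the opposite strand. The intron 3 regions and the upstream region also lie within *Gm16271*, and those at 135.3 and 160.7 kb within the noncoding *Gm16268*, so position alone does not assign them to *Stab2*.

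*Stab1* (ENSMUSG00000042286.7, chromosome 14, 31952199 to 31981827, minus strand) had 11 regions, of which 5 were distal and all intronic. Intron 1 held 3 of them, at 1.3, 2.0, and 2.4 kb from the 5′ end, and introns 11 and 12 held 1 each, at 7.9 kb (172 bp) and 8.2 kb. At the 5′ end, chr14:31982204-31982354 was centered 452 bp upstream and also lies at a start of *Tnnc1*. In contrast to *Stab2*, the distal regions of *Stab1* kept to the first 10 kb of the gene. Starts of *2010107H07Rik*, *Nt5dc2*, and *Nisch* accounted for 3 further regions in its flanks.

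*Lyve1*, which encodes a hyaluronan receptor, had 4 regions. It had 1 region at its 5′ end, chr7:118006641-118006791, centered 249 bp upstream, and none in its body. Its single distal region was 14.3 kb from the 5′ end, past the gene's 3′ end, and its 2 others were at the start of *Rnf141*. *Clec4g*, which encodes the sinusoidal lectin LSECtin, had 6 regions, 4 of them at own starts. One was at the 5′ end, chr8:3720664-3720814, and 3 clustered at 1.9, 2.4, and 2.8 kb, near the starts of a retained-intron transcript and of a transcript annotated as a target of nonsense-mediated decay. Its 1 distal region was at 8.7 kb, in the part of the gene body that only the latter transcript covers. The noncoding gene *Gm16553* on the opposite strand also spans it. *Fcgr2b*, which encodes the inhibitory IgG receptor through which these cells take up immune complexes, had 3 regions. They were chr1:172906148-172906299 at the 5′ end, the region in intron 1 at 3.4 kb (196 bp), and 1 at 23.1 kb, downstream. *Fcgr2b* was the only one of the 10 genes with a distal region that matched the PU.1 motif more than 1 time in the central window counted below.

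The receptors for vascular growth factors had distal regions far into the gene. *Kdr* (ENSMUSG00000062960.6, chromosome 5, 76328852 to 76374483, minus strand), which encodes the VEGF receptor VEGFR2, had 8 regions, of which 7 were distal, and no annotated gene of another name lay in its window. Its 5′ end had a region of 189 bp, chr5:76374507-76374695, centered 118 bp upstream. The distal regions were at 2.8 kb in intron 1, at 16.0 kb (219 bp), 16.4 kb, and 22.2 kb over annotated exons, at 33.4 kb in intron 22, at 44.7 kb over an exon near the 3′ end (266 bp), and at 55.5 kb downstream (183 bp). *Tek* (ENSMUSG00000006386.9, chromosome 4, 94405980 to 94541667, plus strand), which encodes the angiopoietin receptor TIE2, is longer than *Kdr* (135.7 against 45.6 kb) but had only 4 regions. There was 1 at the 5′ end, chr4:94405998-94406148, 1 at 7.4 kb in intron 1 (197 bp), and a pair in intron 11 at 90.7 kb and 91.0 kb (219 bp) with 32 bp between them. All 3 distal regions of *Tek* held the ETS motif. *Tek* had the lowest distal density of the 10 genes, 0.193 distal regions per 10 kb of gene and flanks.

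*Gpr182*, which encodes an atypical chemokine receptor, is the shortest of the genes (4.5 kb, ENSMUSG00000058396.6, chromosome 10, 127184332 to 127188788, minus strand) and had 11 regions in its window. Of these, 9 were distal, which gave 3.68 distal regions per 10 kb, and only 2 of the 22367 protein-coding genes had a higher density. Upstream, 4 regions lay at 3.3, 4.6, 5.2, and 6.6 kb from the 5′ end, the first 2 of them 214 and 204 bp wide. Within the gene there were 2 over exons at 1.5 and 2.3 kb. Downstream, regions at 5.6 and 6.9 kb lie within *Zbtb39*, and the widest of all 74 regions (358 bp) at 13.4 kb is next to a region at the *Zbtb39* start. The 5′ end itself had chr10:127188782-127188932. When only regions in no other protein-coding gene and nearest to the member's own 5′ end were counted, 3 of the 9 were left. The same rule left 6 of 10 distal regions in *Stab2*, 3 of 7 in *Gata4*, and 0 of 1 in *Lyve1*. The other genes kept theirs, so 31 of the 46 distal regions were left.

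*Gata4*, which encodes a TF that specifies the sinusoidal endothelium, had 10 regions and 7 distal ones (ENSMUSG00000021944.8, chromosome 14, 63817759 to 63890529, minus strand). Of its regions, the nearest to the 5′ end of its longest model lay 15519 bp inside the gene. The transcript with the longest coding sequence starts 26421 bp inside that model, and 2 regions lay there, at 25.5 kb and 26.2 kb (233 bp). Just upstream of this start were distal regions at 23.7 and 24.1 kb, and another was at 15.5 kb. Intron 2 held 2, at 59.2 kb (211 bp) and 64.4 kb (202 bp), and the flank past the 3′ end held 2, at 75.7 and 76.3 kb. *Oit3*, which encodes a secreted protein with a zona pellucida domain, had 3 regions. Those at its 5′ end, chr10:58904687-58904976, and at 1.7 kb upstream were 290 and 246 bp wide, so that *Oit3* had the fewest regions together with *Fcgr2b* but among the wider ones. The last, at 10.9 kb, was at the start of a retained-intron transcript.

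**Figure D2:**
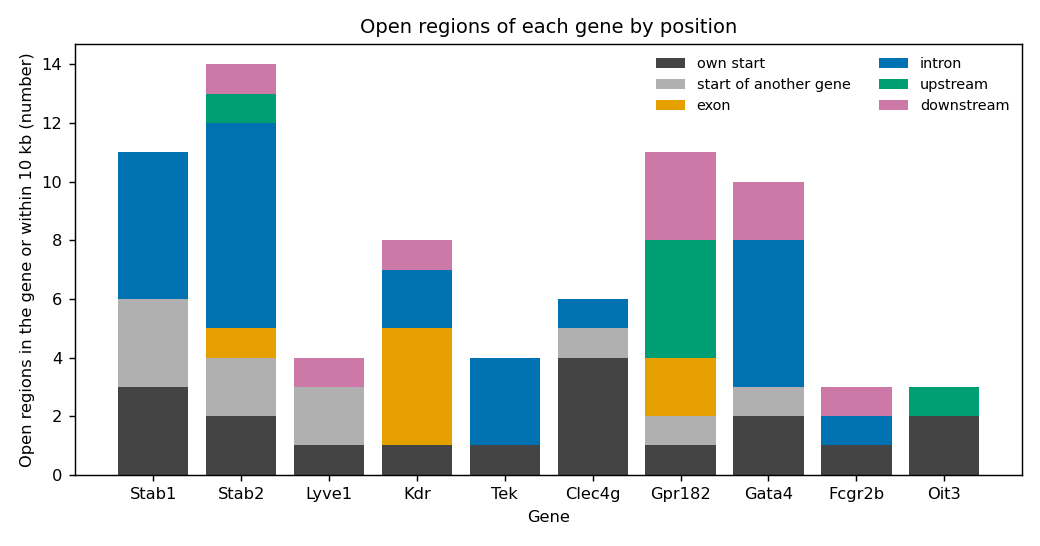
Number of open regions at each of the 10 genes, stacked by position of the midpoint (own start, start of another gene, exon, intron, upstream, downstream). *Stab2* has the most regions (14), *Fcgr2b* and *Oit3* the fewest (3 each), and the distal classes run from 1 region in *Lyve1*, *Clec4g*, and *Oit3* to 10 in *Stab2*.

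Some open regions came in close pairs. There were 14 pairs of neighbors at most 500 bp apart, in 8 of the 10 genes, for example in intron 11 of *Tek*, between introns 11 and 12 of *Stab1* (166 bp), and near 16 kb in *Kdr* (218 bp). *Fcgr2b* and *Oit3* had none. Some of the pairs lay at starts, as in *Clec4g* and *Lyve1*. How often neighbors lie this close over the whole list was not counted, so whether the pairs are a trait of these genes is unknown. Joining such neighbors over the whole list, across the edges of the windows too, left 59 regions and 37 distal ones. From the 5′ end of their gene, 27 of the 46 distal regions were more than 10 kb away and 13 more than 50 kb. Other annotated starts could be nearer. The *Stab2* region at 160.7 kb was 1485 bp from such a start, and the *Gata4* region at 59.2 kb was 1153 bp from one. The farthest from any annotated start was the *Kdr* region at 33.4 kb, at 33407 bp.

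Gene length bears on these counts, because a longer window can hold more regions. The median window of the 10 genes, flanks included, was 44.2 kb, and that of all protein-coding genes 35.4 kb. The 10 genes had a median of 7 regions and 4 distal regions, against 2 and 1 for all protein-coding genes. Per 10 kb of window the median was 0.545 distal regions for the 10 genes and 0.161 for all protein-coding genes. All of the 10 were above the latter value, from *Tek* at 0.193 and *Oit3* at 0.258 to *Stab1* at 1.01, *Kdr* at 1.07, and *Gpr182* at 3.68. Among genes with windows of similar length the picture varied. *Gpr182*, *Stab1*, *Kdr*, and *Gata4* had more distal regions than 99.9%, 93.2%, 92.5%, and 92.5% of genes in their length class (under 30, 30 to 50, 50 to 100, and 50 to 100 kb), and *Stab2* more than 83.5% of genes over 100 kb. *Tek* had 3 distal regions, which is the median of genes over 100 kb, and *Lyve1*, *Clec4g*, and *Oit3* had 1, the median of genes of 30 to 50 kb. *Fcgr2b*, with 2, had more than 62.6% of genes of that class. These ranks count every distal region in the window, also those in or nearest to other protein-coding genes.

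The same counts were made for genes typical of other cells. Of 25 further endothelial genes, 20 had a start region and 23 a distal region, with a median of 0.500 distal regions per 10 kb. *Egfl7*, an angiogenic factor, had the highest density of them (3.32), *Emcn*, a sialomucin of endothelium, had no region in its window, and *Rspo3* had no distal region. *Cdh5*, *Flt4*, *Erg*, and *Fli1*, which encode VE-cadherin, VEGFR3, and the ETS factors ERG and FLI1, had 5, 6, 7, and 9 distal regions but no region at an annotated start. *Stab2* and *Gata4* lacked a region only at the 5′ end, since both had regions at other annotated starts of their own. *Cdh5*, *Flt4*, *Erg*, and *Fli1*, and *Csf1r* for its starts below, were singled out after their values were seen. Of 10 Kupffer cell genes, the label's own cell type, all had a region in the window, 6 had a start region and 8 a distal region, and the median was 0.316 per 10 kb. *Csf1r*, the receptor for the macrophage growth factor CSF1, had the highest density in that list (1.29), with 6 distal regions and none at an annotated start. *Vsig4* and *Emr1* had no distal region.

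For 10 hepatocyte genes the counts were 9 and 9, with a median of 0.761 per 10 kb, from *Apob* with no distal region to *Apoa1* at 1.37. The stellate cell list had 3 of 10 genes with a start region and 6 with a distal region (0.313 per 10 kb), and the list of neuron and muscle genes had 1 and 5 (0.0547 per 10 kb). No region lay at *Lrat*, *Reln*, *Dcn*, or *Rgs5* of the stellate list or at *Gad1*, *Neurod1*, *Myh6*, or *Myod1* of the neuron and muscle list, where *Snap25* had a start region only. The highest densities in these lists were 0.611 at *Colec11* and 0.656 at *Ckm*. The endothelial and hepatocyte lists thus had higher medians than the Kupffer cell list, and the 10 sinusoidal genes and the Kupffer cell genes overlapped in density (0.193 to 3.68 and 0 to 1.29). The regions of endothelial and hepatocyte genes stand in a list labeled as LMs. Which cells of the preparation carried the open chromatin was not tested, and fewer open cells cannot be told apart from weaker opening in each cell. Without *Stab1*, *Lyve1*, and *Fcgr2b*, which macrophages are known to express, 38 distal regions in 7 of 7 genes were left. The median of the 7 genes was 0.535 per 10 kb. Their expression in macrophages was not examined, so they may still include genes shared with LMs. No genes were taken out of the further endothelial list in this way. Some of its genes may be expressed in macrophages too, so that list is not free of genes shared with LMs.

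**Figure D3:**
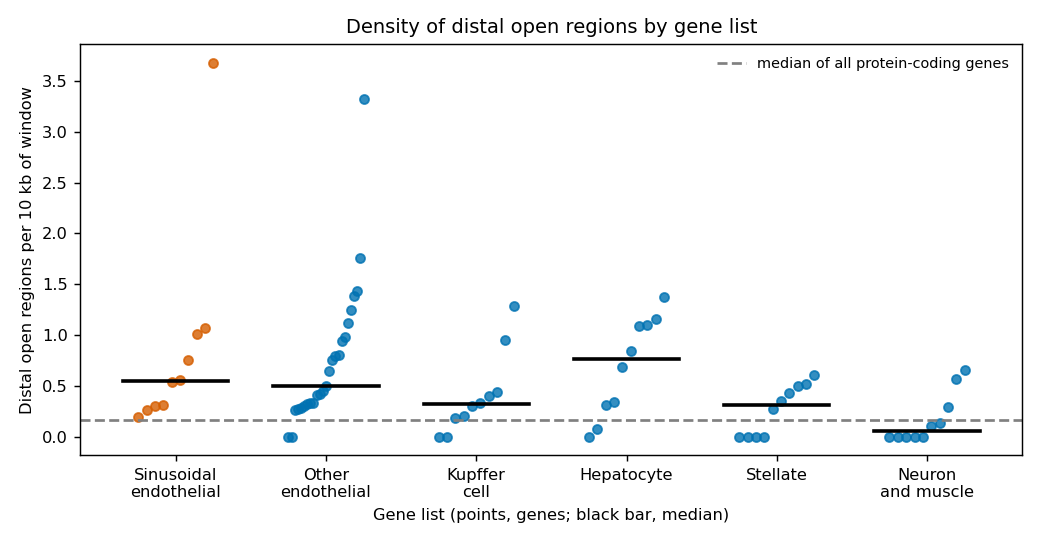
Distal open regions per 10 kb of gene body and flanks for each gene of 6 lists. Points are genes, black bars are list medians, and the dashed line is the median of all protein-coding genes (0.161). The sinusoidal endothelial list has a median of 0.545 and no gene at 0, whereas each of the other lists has at least 1 gene at 0. The hepatocyte list has the highest median (0.761). All lists were chosen with earlier results of these data known, and the further endothelial list is longer (25 genes) than the others (10 genes).

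Width is the only measure of size that the list gives. The distal regions of the 10 genes had a median width equal to the median of all distal regions and to the commonest width in the list, which is 150 bp after rounding to the nearest 10 bp. This is also the narrowest of the members, and the widest was 358 bp. The commonest width was that of 24 of the 46 (52.2%) and of 53.6% of all distal regions. At least 200 bp were reached by 17 of the 46 (37.0%), and by 26.1% of all distal regions. They were spread unevenly, with 5 in *Gpr182*, 4 in *Stab2*, 3 in *Gata4*, 2 in *Kdr*, 1 each in *Lyve1*, *Tek*, and *Oit3*, and none in *Stab1*, *Clec4g*, and *Fcgr2b*. The further endothelial genes had 29 of 113 distal regions this wide, the hepatocyte list 9 of 27, the Kupffer cell list 2 of 15, the stellate list 2 of 11, and the neuron and muscle list 5 of 31. The median GC content of the distal regions was 51.9%, near the 50.5% of all distal regions.

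**Figure D4:**
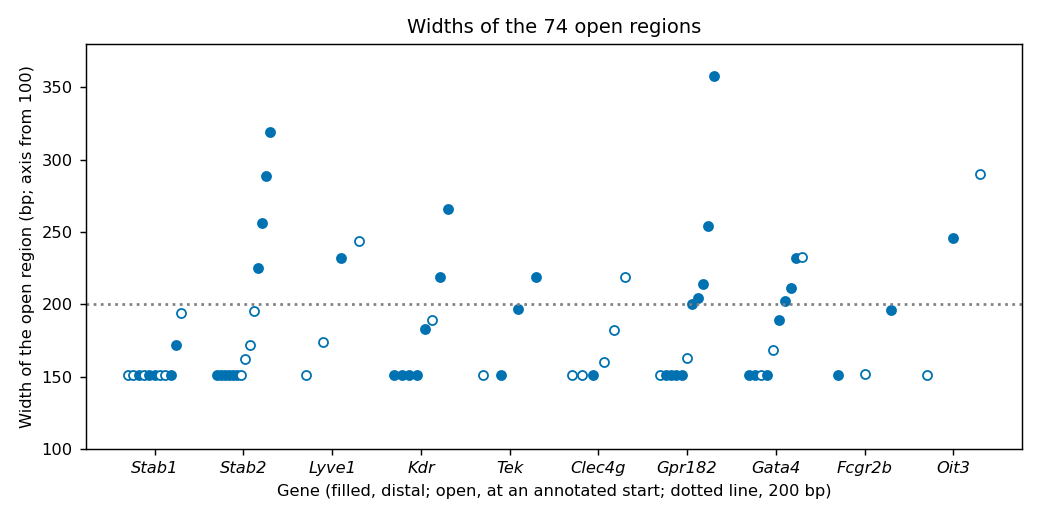
Width in bp of the 74 open regions by gene (axis from 100 bp). Filled points are distal regions, open points are regions at an annotated start of any gene, and the dotted line marks 200 bp. Many regions sit at the commonest width, about 150 bp, all distal regions of *Stab1*, *Clec4g*, and *Fcgr2b* stay under 200 bp, and the 2 widest belong to *Gpr182* (358 bp) and *Stab2* (319 bp).

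Motifs were counted in windows of equal length, each centered on a distal region and as long as the commonest width (about 150 bp). ETS factors such as ERG and FLI1 are known regulators of endothelial genes, and the ETS motif was found in 10 of the 46 windows (21.7%, 95% Wilson confidence interval 12.3% to 35.6%), in 6 of the 10 genes, against 12.5% of all distal regions. The GATA motif was in 6 windows (13.0%, 6.12% to 25.7%), in 5 genes, against 6.86%. The SOX motif was in 3 windows (6.52% against 5.16%), the AP-1 motif in 5 (10.9% against 6.97%), the C/EBP motif in 6 (13.0% against 10.3%), and the PU.1 motif, bound by the macrophage ETS factor PU.1, in 3 (6.52% against 3.93%). The HNF4 motif of the hepatocyte factor HNF4A was in 0 of 46 windows, which allows a share of up to 6.52% by a limit of 3 counts and 7.71% by the Wilson interval, and in 1.02% of all distal regions. For all 7 motifs the share over all distal regions lay within the Wilson interval of the 46 windows. No difference could thus be seen at this number of regions and this window length. Windows of the same gene are also not independent of each other. With windows of about 300 bp the ETS share was 23.9% against 21.1% of all distal regions, so most of the gap was gone. The GATA share was 23.9% against 13.5%, so its gap remained. No interval is given for windows of this length, and the GATA difference was not tested.

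GATA, ETS, or SOX letters were present in 18 of the 46 windows (39.1%, against 22.7% of all distal regions), and GATA together with ETS in 1, at 15.2 kb in *Stab2*. This pooled count was not among the planned ones and was not made for the other lists. It leaves out AP-1, PU.1, and C/EBP, whose shares were also above those of all distal regions, and HNF4, whose share was below. Enrichment of the pooled motifs was not tested. The GATA windows were those of *Stab2* at 15.2 and 17.1 kb, *Kdr* at 16.0 kb, *Gata4* at 15.5 kb, *Lyve1* at 14.3 kb, and *Oit3* at 1.7 kb. Among the distal regions of the 25 further endothelial genes, ETS letters were in 19 of 113 windows (16.8%) and GATA letters in 12 (10.6%). ETS letters were in 1 of 27 windows of the hepatocyte list (3.70%), 2 of 15 of the Kupffer cell list (13.3%), 1 of 11 of the stellate list (9.09%), and 2 of 31 of the neuron and muscle list (6.45%). GATA letters were in 7.41%, 13.3%, 18.2%, and 9.68% of the same windows, so the GATA share of the Kupffer cell and stellate lists was not below that of the 10 genes.

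**Figure D5:**
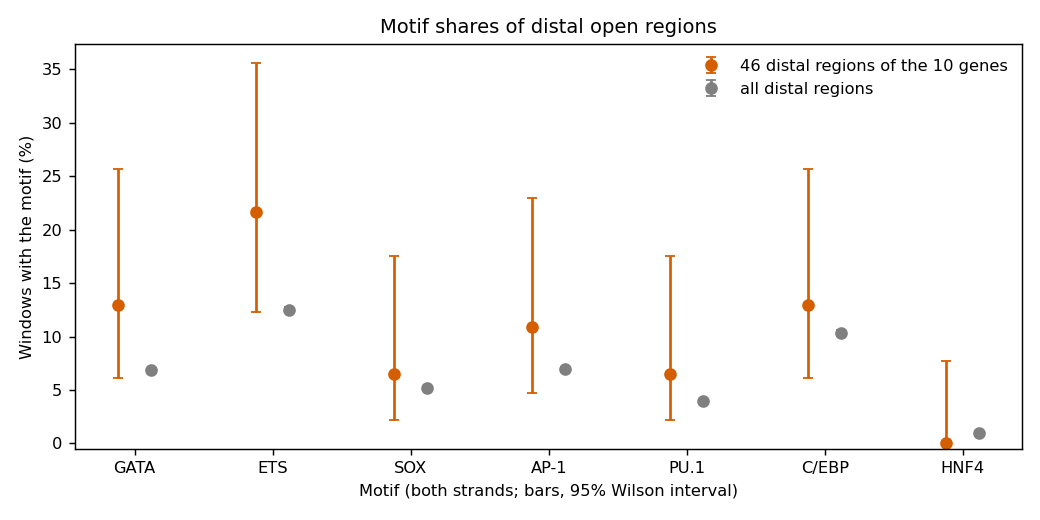
Percentage of windows of about 150 bp that hold each of 7 motifs, for the 46 distal regions of the 10 genes (orange) and for all distal regions (gray). Bars are 95% Wilson confidence intervals. Each orange bar spans the gray point beside it, and the ETS and GATA shares are 21.7% and 13.0% against 12.5% and 6.86%.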

How the data were processed

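Fast-ATAC-Seq libraries of LMs were processed by the authors with the Kundaje laboratory pipeline. They trimmed adapters, aligned reads to mm9 with Bowtie, pooled the alignments of replicates, and called peaks. The submitters' processing notes also name HOMER. The caller, its threshold, and the way peaks were joined are not given in the sources used here. The deposited file holds positions only (starts counted from 0, given here from 1), with no count or score, so depth and its precision are unknown.

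Regions on chromosomes 1 to 19, X, and Y were assigned by midpoint to GENCODE vM1 genes. Sequence came from NCBIM37, the assembly of mm9, and no region ran past a chromosome end. The annotation gave all genes of every list. The 10 members, the comparison lists, and the motifs were chosen with earlier results of these data known. All members are named, with the region nearest the 5′ end and the widest distal region of each described. From the other lists, genes are named where no region was found or where the density was highest or lowest, and *Cdh5*, *Flt4*, *Erg*, and *Fli1* were added after their values were seen. Assignment and motif search were tested on simulated data. Python 3.11.15, NumPy 2.4.6, SciPy 1.17.1, and pysam 0.24.0 were used.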

Additional observations from a re-analysis of the deposited data

How the results depend on the processing

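No paired analysis was possible because values for single libraries are absent from the data used here, and for the same reason no replicate could be left out. The number of regions was 46 in gene bodies only, where the flanks no longer count. With a start zone of 2500 bp there were 29 distal regions and a median of 0.316 per 10 kb, and *Stab1*, *Clec4g*, and *Oit3* had no distal region left. Asking for regions at least 200 bp wide, which leaves out the commonest width, gave 21 regions, 17 distal regions, 3 genes with a start region (*Clec4g*, *Gata4*, and *Oit3*), 0.236 distal regions per 10 kb, a median width of 232 bp, a C/EBP share of 29.4%, and a GATA share of 23.5%. For the wider start zone and the width limit, the medians and shares over all protein-coding genes or all distal regions are not given. Whether the values of the 10 genes differ from the background at those settings was not tested. Windows of about 300 bp gave 23.9% for GATA, ETS, and C/EBP and 10.9% for SOX, against 13.5%, 21.1%, 17.4%, and 10.8% of all distal regions. Where regions were joined, a 5 kb flank was used, or overlap replaced the midpoint, counts and densities stayed within 1.5 times the values reported. The number of genes with a distal region ran from 7 to 10 over all planned settings, and was 9 with the nearest 5′ end only, where *Lyve1* dropped out. The setting without 3 genes that macrophages express was added after the data were seen.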
